A study of Mus musculus with 6 samples.

Results

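The pocket proteins *Rb1*, *Rbl1* and *Rbl2*, the MuvB core subunits *Lin9*, *Lin37*, *Lin52*, *Lin54* and *Rbbp4*, and the cell cycle transcription factors *Mybl2* and *Foxm1* make up 10 of the 19938 genes that the array annotation names singly. Each gene was chosen by its symbol, and of several array rows of a gene the row with the highest mean over the 6 arrays was kept. *Lin52* had a second row and the other 9 genes had 1 row each. RNA came from N2A cells, a mouse neuroblastoma line, grown in medium with 10% serum. The 3 control cultures received 1.5 µg of a non-targeting vector and the 3 knockdown cultures received 1.5 µg of a *Paupar* knockdown construct, which expresses a short hairpin RNA from a U6 promoter against the long noncoding RNA *Paupar*. Both were transient transfections, so untransfected cells may be in each culture, and total RNA was taken 2.5 days later for 1 array per culture. The labels do not name the hairpin, for which the study's text gives the vector sh408 where it measures this knockdown by qRT-PCR. *Paupar* itself was not analysed here because no array row is assigned to it.

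Pocket proteins restrain the cell cycle by holding E2F transcription factors. RB1 mainly binds the activating E2Fs, whereas p107 (*Rbl1*) and p130 (*Rbl2*) bind E2F4 and E2F5 and join the MuvB core to form DREAM, a complex that represses cell cycle genes in resting cells. When cyclin-dependent kinases phosphorylate the pocket proteins, MuvB leaves them, binds B-MYB (*Mybl2*) and later recruits FOXM1, and in that form it drives the genes of G2 and mitosis. *Mybl2* and *Foxm1* are themselves cell cycle genes, and repression of *Mybl2* through an E2F site beside its transcription start is a textbook case of E2F control.

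Of these 10 genes, *Mybl2*, *Foxm1* and *Lin54* rose in the knockdown, by 1.78-fold, 1.52-fold and 1.45-fold, and none fell. Of all tested genes, 2.39% rose and 5.16% fell. The calls depended on the arrays in the fit. With 1 array left out, 0 to 4 of the 10 genes passed, and 0 without control replicate 1. *Lin9* and *Lin52* lay close to the threshold at 1.34-fold and 1.31-fold and did not pass it. The pocket proteins *Rb1*, *Rbl1* and *Rbl2*, with *Lin37* and *Rbbp4*, did not pass either, with fold changes of at most 1.17 in either direction. In RNA from whole cultures, a different share of cells in a phase of the cycle and a different amount of RNA per cell cannot be told apart.

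The bases just before the transcription start are shown for 4 of the 6 genes whose 3 knockdown values all lay above the 3 control values, because sites for E2F and MuvB are usually found there. Such a separation was seen for 12.8% of all named genes. The bases are read from RefSeq on assembly GRCm38.p6, which holds entries for 7 of the 10 genes and gives none here for *Rb1*, *Lin9* and *Foxm1*. Each run is the 250 bases before the start, 5′ to 3′ on the strand of the gene. Capitals mark an E2F site (TTTCGCGC or TTTCCCGC here; TTTGGCGC and TTTGCCGC were also searched), the E2F core GGCGGGA, or a cell cycle homology region, the element bound by LIN54 (TTTGAA here; TTCGAA was also searched), read on either strand.
Mybl2, chr2:163054385-163054634, plus strand: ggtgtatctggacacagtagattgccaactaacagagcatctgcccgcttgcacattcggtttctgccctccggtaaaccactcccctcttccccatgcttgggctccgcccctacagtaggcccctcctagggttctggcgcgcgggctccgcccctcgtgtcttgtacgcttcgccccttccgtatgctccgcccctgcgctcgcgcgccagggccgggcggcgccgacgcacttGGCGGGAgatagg
Lin54, chr5:100498574-100498823, minus strand: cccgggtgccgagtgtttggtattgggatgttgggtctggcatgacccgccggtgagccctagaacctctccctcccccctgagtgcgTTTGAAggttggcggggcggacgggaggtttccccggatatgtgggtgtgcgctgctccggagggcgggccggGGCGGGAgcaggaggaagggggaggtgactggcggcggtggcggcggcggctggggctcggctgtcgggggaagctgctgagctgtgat
Lin52, chr12:84451258-84451507, plus strand: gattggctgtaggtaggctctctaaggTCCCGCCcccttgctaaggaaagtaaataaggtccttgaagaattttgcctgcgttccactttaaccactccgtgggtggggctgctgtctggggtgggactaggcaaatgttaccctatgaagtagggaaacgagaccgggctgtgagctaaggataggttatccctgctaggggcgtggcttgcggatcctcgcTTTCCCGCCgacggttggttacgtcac
Rbl1, chr2:157204535-157204784, minus strand: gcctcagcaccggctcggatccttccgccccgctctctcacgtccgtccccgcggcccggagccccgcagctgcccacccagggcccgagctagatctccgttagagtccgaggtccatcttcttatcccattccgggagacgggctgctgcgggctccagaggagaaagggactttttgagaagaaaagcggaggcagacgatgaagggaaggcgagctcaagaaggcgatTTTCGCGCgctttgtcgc

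In *Mybl2* the core GGCGGGA lay 13 to 7 bases before the start. *Lin54* held the core 89 to 83 bases before the start and TTTGAA 162 to 157 bases before it, while a second RefSeq start of *Lin54* (chr5:100500640-100500889) held none of these letters. *Lin52* held the core on the other strand 223 to 217 bases before the start, and TTTCCCGC 27 to 20 bases before it, which overlaps another core on the other strand at 25 to 19. *Rbl1* held TTTCGCGC 18 to 11 bases before the start. Among the genes whose groups overlapped, *Lin37* held the core on the other strand at 16 to 10 and TTTGAA at 197 to 192. *Rbl2* held TTTGAA on the other strand at 201 to 196, and *Rbbp4* held neither kind of element. Of 32851 RefSeq promoters of the same length, 1.86% held 1 of the 4 E2F sites, 9.75% the core and 17.1% a cell cycle homology region. The entry starts of *Mybl2*, *Lin37* and the first *Lin54* entry lie inside gene models that reach further 5′. The letters were chosen with these sequences in view, a match is not a measured site, and a missing match says only that the letters are not in this window.

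**Figure D1:**
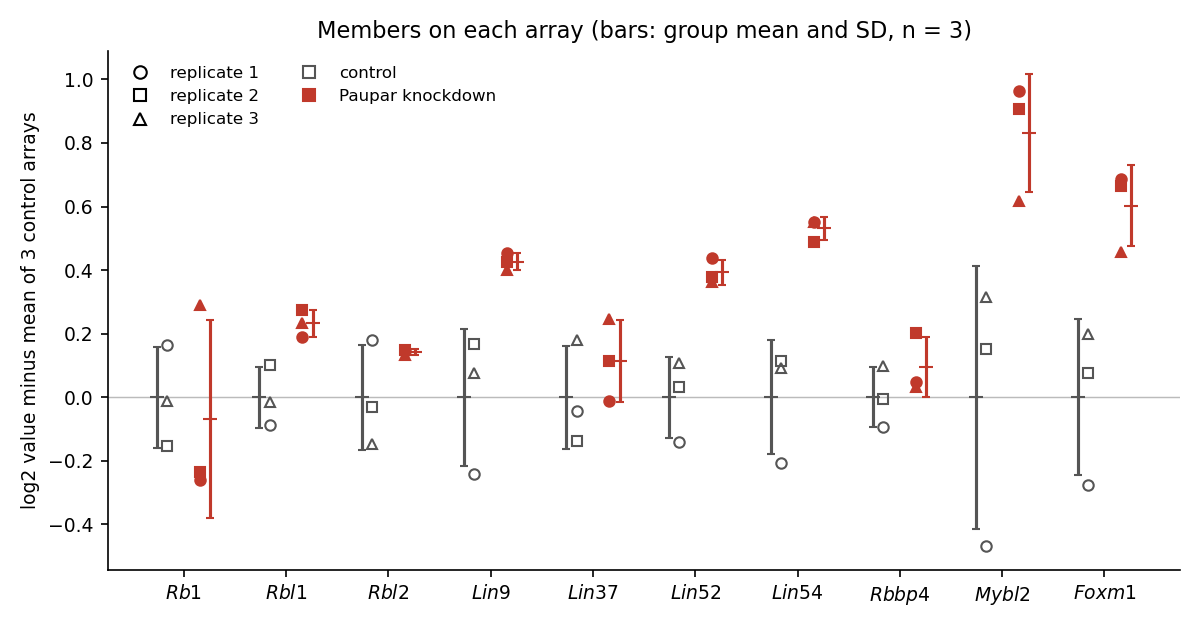
Value of each of the 10 genes on every array, as log2 value minus the mean of the 3 control arrays. Open grey symbols are control arrays and filled red symbols knockdown arrays, the shape gives the replicate number, and the bars are group mean and SD (n = 3). For *Rbl1*, *Lin9*, *Lin52*, *Lin54*, *Mybl2* and *Foxm1* all 3 knockdown arrays lie above all 3 control arrays, as they do for 12.8% of all named genes. Control replicate 1 is the lowest control array for each of these 6 genes.

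The deposited values are log2 expression values normalised together, so differences below are on the log2 scale, and the level of a gene is not set against that of another because probes differ in brightness. The median over all 19938 genes lay between 7.85 and 7.92 on the 6 arrays. Control replicate 1 stood apart for these genes. The median of the 10 genes, each taken as the difference from its control mean, was -0.12 there, against 0.054 and 0.095 in control replicates 2 and 3 and 0.31, 0.33 and 0.33 in knockdown replicates 1 to 3. What leaving this array out did is given below for the 10 genes and for the counts of the lists around them. It is not given for most other single genes or for the marker lists.

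*Mybl2* encodes B-MYB, the MYB protein that MuvB carries in S phase. Its values were 9.04, 9.66 and 9.83 in control replicates 1 to 3 and 10.48, 10.42 and 10.13 in knockdown replicates 1 to 3. The groups did not overlap, control replicate 1 was the lowest array, and the spread among controls was the widest of the 10 genes. The control mean was 9.51 ± 0.41 and the knockdown mean 10.34 ± 0.19 (SD, n = 3), a log2 difference of 0.83 (SE 0.18, limma adjusted *P* = 0.0148). This difference ranked at percentile 99.96 of all genes. Without control replicate 1 it was 0.60, and the adjusted *P* was 0.0537. Without knockdown replicate 2 it was 0.79, and the limma adjusted *P* was 0.0614.

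*Foxm1* encodes the forkhead factor that joins B-MYB and MuvB on genes of G2 and mitosis. Its values were 10.26, 10.61 and 10.74 in control and 11.23, 11.20 and 10.99 in knockdown. Again the groups did not overlap, with knockdown replicate 3 the lowest of the knockdown arrays. The log2 difference was 0.60 (SE 0.14, limma adjusted *P* = 0.0214), from a control mean of 10.54 ± 0.25 and a knockdown mean of 11.14 ± 0.13 (SD, n = 3). Leaving out control replicate 1 gave 0.46, with an adjusted *P* of 0.0656. With an array left out, the limma adjusted *P* was highest, at 0.101, without knockdown replicate 2, where the difference was 0.57.

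*Mybl2* and *Foxm1* were also compared with each other within arrays. *Mybl2* minus *Foxm1* was -1.22, -0.95 and -0.91 in control and -0.75, -0.78 and -0.86 in knockdown, so the change of *Mybl2* exceeded that of *Foxm1* by 0.23 on the log2 scale. The groups did not overlap, and the two-sided exact permutation *P* over the 20 arrangements of the arrays was 0.1, the smallest this design allows (0.4 after adjustment over 4 pairs). A difference in the size of their rise was not shown. Without control replicate 1 it was 0.13.

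Among the MuvB subunits *Lin54* had the largest difference. LIN54 is the DNA-binding subunit, which reads the cell cycle homology region. Its values were 10.43, 10.75 and 10.73 in control and 11.19, 11.13 and 11.19 in knockdown. The knockdown arrays lay close together and above all controls. The log2 difference was 0.53 (SE 0.12, limma adjusted *P* = 0.0224), with a control mean of 10.64 ± 0.18 and a knockdown mean of 11.17 ± 0.036 (SD, n = 3). With control replicate 1 left out it was 0.43, with an adjusted *P* of 0.0601. Leaving out knockdown replicate 1 gave 0.52, with the highest limma adjusted *P* of the fits without an array, 0.0865.

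*Lin9* encodes the scaffold of MuvB that also holds B-MYB. It read 8.71, 9.12 and 9.03 in control and 9.41, 9.38 and 9.36 in knockdown. No overlap was seen, and the log2 difference was 0.43 (SE 0.13, limma adjusted *P* = 0.0578), just above the threshold of 0.05. *Lin52* encodes the small subunit whose phosphorylation by DYRK1A lets MuvB join p130. Its kept row read 8.80, 8.97 and 9.05 in control and 9.38, 9.32 and 9.31 in knockdown, a log2 difference of 0.39 (SE 0.12, limma adjusted *P* = 0.0568). The second row of *Lin52* gave 8.83, 8.96 and 9.02 in control and 9.33, 9.21 and 9.26 in knockdown, a difference of 0.33 in the same direction. Both rows of *Lin52* thus separated the groups. The 95% interval was 0.15 to 0.70 for *Lin9* and 0.14 to 0.65 for *Lin52*. With control replicate 1 left out the differences were 0.31 and 0.32 (limma adjusted *P* = 0.108 and 0.0981).

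The remaining MuvB subunits overlapped between groups. *Lin37*, which encodes a subunit needed for repression by DREAM, read 9.80, 9.71 and 10.02 in control and 9.83, 9.96 and 10.09 in knockdown, a log2 difference of 0.12 (95% interval -0.16 to 0.39, limma adjusted *P* = 0.593). It lay between 0.047 and 0.20 with any array left out, the extremes coming from control replicates 2 and 3. *Rbbp4*, a histone-binding protein shared with several chromatin complexes, read 12.43, 12.51 and 12.62 in control and 12.57, 12.72 and 12.55 in knockdown. It was among the genes removed for little variation, and the fit to all genes gave 0.095 (95% interval -0.11 to 0.30, limma adjusted *P* = 0.626). That value was 0.048 with control replicate 1 left out, 0.14 with control replicate 3 left out and 0.040 with knockdown replicate 2 left out. Of the 5 MuvB genes, only *Lin54* passed the threshold in the main fit. Over 16 alternative settings of the fit *Lin54* passed in 11, and *Lin9* and *Lin52* in 5 each. Whether these subunits differed from each other was not tested.

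**Figure D2:**
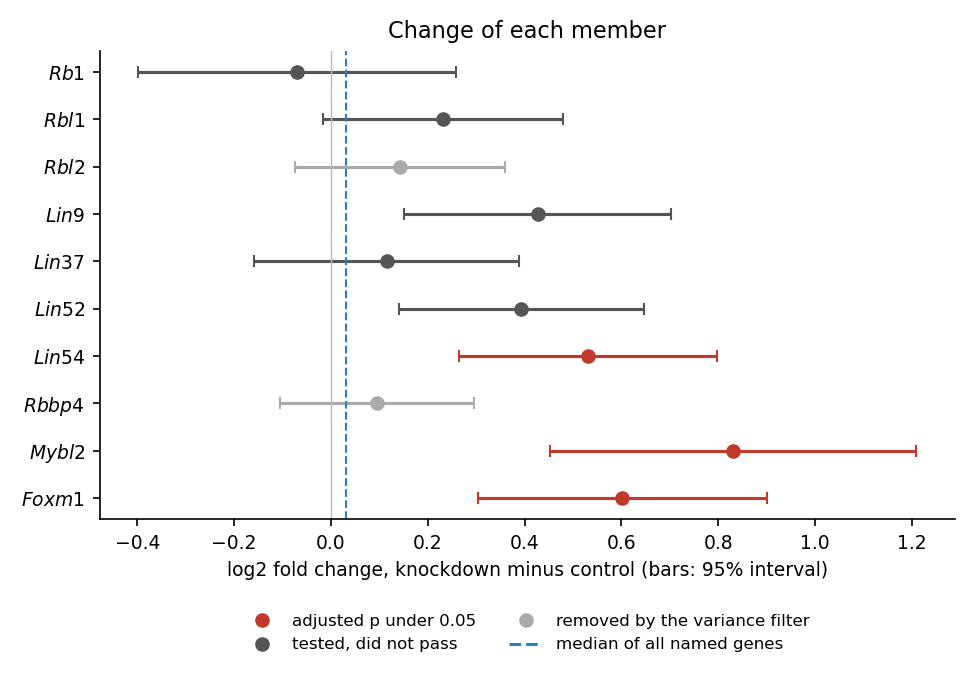
Log2 fold change (knockdown minus control) of each of the 10 genes, with its 95% interval from limma. Red points passed the threshold, dark grey points were tested and did not pass, light grey points were removed by the variance filter and come from the fit to all genes, and the dashed line is the median of all named genes, 0.031. The intervals of *Mybl2*, *Foxm1*, *Lin54*, *Lin9* and *Lin52* lie above 0, and those of the 3 pocket proteins, *Lin37* and *Rbbp4* include it.

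None of the pocket proteins passed the test. *Rb1*, the retinoblastoma gene, was 9.94, 9.62 and 9.76 in control and 9.51, 9.54 and 10.06 in knockdown, with knockdown replicate 3 the highest of all 6 arrays and the other 2 knockdown arrays the lowest. The log2 difference was -0.069 (SE 0.15, 95% interval -0.40 to 0.26, limma adjusted *P* = 0.798). Without knockdown replicate 3 it was -0.25, and without control replicate 1 it was 0.013.

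*Rbl1* encodes p107, the pocket protein made in cycling cells. It stood at 9.66, 9.85 and 9.73 in control and 9.93, 10.02 and 9.98 in knockdown. All knockdown arrays lay above all controls, and the log2 difference of 0.23 (SE 0.12, 95% interval -0.016 to 0.48) had a limma adjusted *P* of 0.215. With control replicate 1 left out *Rbl1* was removed for little variation, and the fit to all genes gave 0.19 (limma adjusted *P* = 0.247). *Rbl2* encodes p130, the pocket protein of resting cells. It stood at 9.62, 9.41 and 9.29 in control and 9.59, 9.59 and 9.57 in knockdown, so control replicate 1 was above all knockdown arrays. *Rbl2* was removed for little variation, and the fit to all genes gave 0.14 (SE 0.096, 95% interval -0.074 to 0.36, limma adjusted *P* = 0.482). With control replicate 1 left out *Rbl2* passed the filter and its difference was 0.23 (adjusted *P* = 0.161), and with control replicate 3 left out it was 0.069.

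Within arrays, the change of *Rbl1* exceeded that of *Rb1* by 0.30 (two-sided exact permutation *P* = 0.3, adjusted over 4 pairs 0.533) and that of *Rbl2* by 0.090 (*P* = 1 by the same exact test). The change of *Rb1* minus that of *Rbl2* was -0.21 (*P* = 0.4 by the same exact test, adjusted 0.533). All 3 differences overlapped between groups. *Rbl1* minus *Rbl2* read 0.040, 0.44 and 0.44 in control and 0.35, 0.43 and 0.41 in knockdown, and without control replicate 1 the difference became -0.043. With an array left out, *Rbl1* minus *Rb1* lay between 0.18 (control replicate 1) and 0.48 (knockdown replicate 3), and *Rb1* minus *Rbl2* between -0.40 (knockdown replicate 3) and -0.11 (knockdown replicate 1). With 3 arrays per group these tests could not go below 0.1, so they do not show that the pocket proteins behaved alike.

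In counts, 8 of the 10 genes were tested and 2 were removed for little variation. Of the 8, 3 rose, 0 fell and 5 did not pass, in a table of 9969 tested genes where 2.39% rose, 5.16% fell and 7.54% passed in either direction. Of all 10 genes measured, 9 were higher in the knockdown mean and *Rb1* was lower, where 11649 of all 19938 genes were higher and 8289 lower. The median log2 difference was 0.31 against 0.031 over all 19938 genes (0.27 against 0.044 with control replicate 1 left out). The knockdown arrays lay above all control arrays for 6 of the 10, as they did for 12.8% of all named genes.

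Which arrays entered the fit decided how many of the 10 genes passed. With control replicate 1 left out the count was 0 (6 at an unadjusted limma *P* under 0.05). It was 1, *Mybl2* in both cases, with control replicate 3 or knockdown replicate 1 left out, and 0 with knockdown replicate 2 left out (5 at an unadjusted limma *P* under 0.05). Leaving out control replicate 2 gave 4, with *Lin9* added, and leaving out knockdown replicate 3 gave 3. An unadjusted limma *P* under 0.05 was common among all genes, with 2622 of 9969 tested genes when all arrays were in. All-gene counts were 3042 and 2051 without control replicate 1 or 3, and 1693 and 1527 without knockdown replicate 1 or 2. They are also the background for the unadjusted counts of the lists below. When array rows with no gene symbol or with several stayed in the fit, 0 genes passed. At an unadjusted limma *P* under 0.05 were 5 of the 10 genes and 1824 of all genes. In that fit *Mybl2* and *Foxm1* had a limma adjusted *P* of 0.185 and *Lin54* of 0.177. The size of the differences moved less. Over 16 alternative settings the log2 difference lay between 0.60 and 0.99 for *Mybl2*, 0.46 and 0.70 for *Foxm1*, 0.43 and 0.59 for *Lin54*, 0.31 and 0.51 for *Lin9*, and 0.32 and 0.45 for *Lin52*.

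**Figure D3:**
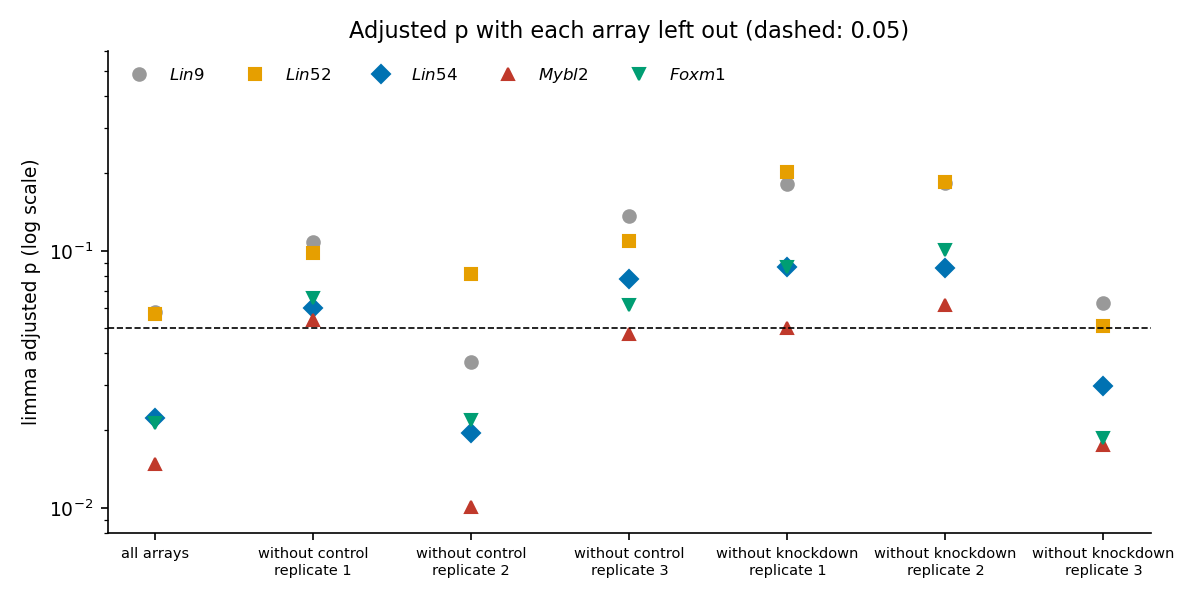
Limma adjusted *P* (log axis) of *Lin9*, *Lin52*, *Lin54*, *Mybl2* and *Foxm1* with all 6 arrays and with each array left out in turn. The dashed line is the threshold of 0.05. *Lin54* and *Foxm1* stay below it, with an array left out, only without control replicate 2 or knockdown replicate 3, and the *Mybl2* value is at its highest, 0.0614, without knockdown replicate 2.

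For each of the 3 genes that rose, the tested genes whose pattern over the 6 arrays lay nearest were listed, by the root mean square difference after centring each gene on its own mean. Nearest to *Lin54* were *Cdk2*, the kinase of S phase entry (0.016), *Mtfr2*, a regulator of mitochondrial shape (0.020), and *Sgo2a*, a protector of centromeric cohesion (0.030), where the median over 9968 genes was 0.32. *Mybl2* was nearest to *Mcm3*, a subunit of the replicative helicase (0.076), *Ccne2*, cyclin E2 (0.092), and *Rpa2*, which coats single-stranded DNA (0.093), with a median of 0.51. *Foxm1* was nearest to *Cenpn*, an inner kinetochore gene (0.036), *Asf1b*, a histone chaperone (0.042), and *Usp1*, a deubiquitinase of DNA repair (0.044), with a median of 0.37. The listed genes were picked for the smallest distances, so they lie below the median by that choice. These distances are over 6 arrays and describe likeness of pattern only.

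The E2F family and its DP partners had 10 measured genes, of which 9 were tested. Of these 6 rose and 0 fell, against 2.39% and 5.16% of all tested genes. Their median log2 difference was 0.46 (0.40 with control replicate 1 left out). The largest rises were *E2f2*, an activating E2F (1.86-fold, limma adjusted *P* = 0.00364), *E2f7*, an atypical repressor that is itself switched on in S phase (1.68-fold, 0.00654), *Tfdp2* (1.51-fold, 0.0123) and *Tfdp1* (1.44-fold, 0.0197), the DP subunits that pair with E2Fs. *E2f8* and *E2f6* also passed. E2F6, E2F7 and E2F8 lack the region that pocket proteins bind, so 3 of the 6 genes that rose encode E2Fs that do not bind them. The DREAM partners *E2f4* and *E2f5* had log2 differences of 0.042 and 0.014, with overlapping groups. *E2f4* was removed for little variation, and *E2f5* did not pass. The number that rose was 3 with control replicate 1 left out, and 2 with control replicate 3 or with knockdown replicate 1 or 2 left out.

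Among 4 close relatives and regulators, 3 were tested, where 2.39% of all tested genes rose. Of these *Myb* alone rose, by 1.53-fold (limma adjusted *P* = 0.0151). *Myb* encodes c-MYB, the founding relative of B-MYB. *Mybl1*, the third MYB gene, had a log2 difference of -0.21, and the DREAM kinase gene *Dyrk1a* of 0.19, neither past the threshold. *Rbbp7*, the paralogue of *Rbbp4*, was removed for little variation and had a difference of 0.10. *Myb* did not pass when control replicate 1 or 3 or knockdown replicate 1 or 2 was left out, and the count was then 0 (1 at an unadjusted limma *P* under 0.05).

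Cyclins, kinases and inhibitors that set the phosphorylation of pocket proteins had 17 measured genes, 12 of them tested. Of these 6 rose and 0 fell, against 2.39% and 5.16% of all tested genes. The median log2 difference of the list was 0.17 (0.28 with control replicate 1 left out). *Ccne2* rose by 1.75-fold (limma adjusted *P* = 0.0163), *Cdc25a*, the phosphatase that activates CDK2, by 1.52-fold (0.0209), *Cdkn2c*, an inhibitor of CDK4 and CDK6, by 1.45-fold (0.0154), and *Cdk2* by 1.45-fold (0.0236). The list holds both activators and inhibitors of the kinases, and *Cdkn2c* is an inhibitor. Leaving out control replicate 1 gave a count of 2, and leaving out control replicate 3, or knockdown replicate 1 or 2, gave 0 (8, 7 and 7 at an unadjusted limma *P* under 0.05).

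Genes of the G1/S transition known as targets of E2F and DREAM had 33 measured members. All were higher in the knockdown mean, as were 11649 of all 19938 genes. Their median log2 difference was 0.57 (0.36 with control replicate 1 left out). Of the 31 tested, 16 rose and 0 fell, against 2.39% and 5.16% of all tested genes. *Rrm2*, a subunit of ribonucleotide reductase, rose by 2.08-fold (limma adjusted *P* = 0.00298), the repair gene *Brca1* by 1.88-fold (0.00873), the origin licensing gene *Cdc6* by 1.83-fold (0.00352) and *Mcm3* by 1.74-fold (0.0177). The mean of the list, as difference from the control mean, was -0.34, 0.21 and 0.13 on the control arrays and 0.64, 0.60 and 0.40 on the knockdown arrays, so control replicate 1 was lowest here too. The count was 6 and 2 with control replicate 1 or 3 left out, 5 and 3 with knockdown replicate 1 or 2 left out, and 8 when no gene was removed for little variation.

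Genes of G2 and mitosis known as targets of B-MYB, MuvB and FOXM1 had 37 measured members. Again all were higher in the knockdown mean, as were 11649 of all 19938 genes. Their median was 0.38 (0.29 with control replicate 1 left out). Of the 32 tested, 10 rose and 0 fell, against the same 2.39% and 5.16% of all tested genes. *Ccnf*, cyclin F, rose by 1.55-fold (limma adjusted *P* = 0.0431), the kinase gene *Melk* by 1.51-fold (0.0312), *Cdca8*, of the chromosomal passenger complex, by 1.46-fold (0.0239), and *Nuf2*, of the outer kinetochore, by 1.43-fold (0.0316). The mean of the list was -0.20, 0.10 and 0.097 on the control arrays and 0.35, 0.38 and 0.34 on the knockdown arrays. With control replicate 1 or 3 left out, or knockdown replicate 1 or 2, the count was 0 (22, 28, 24 and 23 at an unadjusted limma *P* under 0.05). With sample variance as the filter it was 16, and without a filter 6.

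All knockdown arrays lay above all control arrays for 27 of the 33 G1/S genes and 29 of the 37 genes of G2 and mitosis, against 12.8% of all named genes. In RefSeq promoters of the G1/S genes, 27.3% held 1 of the 4 E2F sites, 21.2% the core and 18.2% a cell cycle homology region. In those of the genes of G2 and mitosis the shares were 2.7%, 27% and 32.4%, and in all promoters 1.86%, 9.75% and 17.1%. The full E2F site was thus the more frequent in the first group (9 of 33 promoters against 1 of 37). The core (7 against 10) and the cell cycle homology region (6 against 12) were the more frequent in the second. The letters CCAAT, also searched, were in 63.6% and 81.1%, against 33.8% of all promoters. The lists hold known targets of these factors, so these contrasts are not independent of how the lists were made. These are letter counts without a test.

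Other complexes that hold RBBP4 had 18 measured genes with a median log2 difference of 0.19. Of 13 tested, 3 rose and 0 fell, against 2.39% and 5.16% of all tested genes. *Chaf1a* (1.51-fold, limma adjusted *P* = 0.0360) and *Chaf1b* (1.48-fold, 0.0385) encode the large subunits of chromatin assembly factor 1, which deposits histones at replication forks, and *Ezh2* (1.37-fold, 0.0336) encodes the Polycomb methyltransferase. The count was 0 with control replicate 1 or 3, or knockdown replicate 1 or 2, left out (6, 4, 3 and 3 at an unadjusted limma *P* under 0.05), and without a filter for little variation it was 1.

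**Figure D4:**
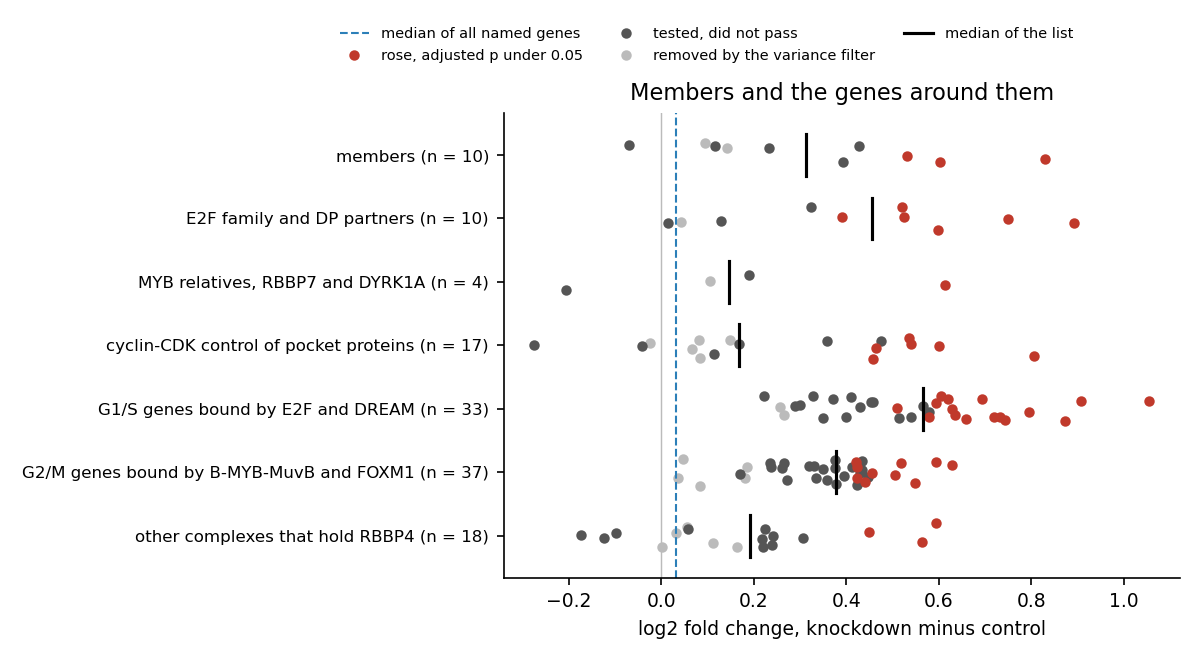
Log2 fold change (knockdown minus control) of every measured gene among the 10 genes and in the 6 surrounding lists. Each point is a gene, coloured by whether it rose, did not pass or was removed by the variance filter, black bars are list medians and the dashed line is the median of all named genes. Every point of the G1/S list and of the G2/M list lies above 0, whereas the cyclin-CDK list and the RBBP4 complexes spread to both sides.

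Markers of sympathetic neuroblasts, the lineage of neuroblastoma, were also read. All 9 measured markers were lower in the knockdown mean, as were 8289 of all 19938 genes, with a median log2 difference of -0.17. Of 8 tested, 2 fell and 6 did not pass, where 5.16% of all tested genes fell. The 2 that fell were *Dbh* (2.13-fold lower, limma adjusted *P* = 0.000687) and *Th* (1.60-fold lower, 0.0105), enzymes of noradrenaline and dopamine synthesis. The mean of the 9 markers, as difference from the control mean, was -0.40, -0.40 and -0.22 on the knockdown arrays and between -0.034 and 0.049 on the control arrays. Of 7 fibroblast markers 6 were tested and 0 passed by limma, with *Pdgfrb* at a log2 difference of -0.75 and *Col1a2* at 0.21 the largest. The mean of the fibroblast markers was 0.21, -0.21 and -0.00018 on the control arrays and -0.069, -0.15 and 0.011 on the knockdown arrays. All 5 measured glial markers were removed for little variation, with *Aldh1l1* at 0.21 and *Aqp4* at 0.16 the largest. Array values have no true zero, so absence of a marker could not be read from them, and the part of the markers in the results above was not tested.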

How the data were processed

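RNA from 3 control and 3 knockdown N2A cultures, stated by the submitters to be biological replicates, was measured on Affymetrix Mouse Gene ST arrays, from 200 ng of RNA each. The deposited table holds log2 values for 35556 rows, which the authors made by RMA background correction, quantile normalisation and summarisation. The tool versions and the build were not given in the sources used here. Rows were named through the platform annotation (21789 with 1 symbol, 1621 with several, 12146 with none), and 1 row per gene, the brightest, left 19938 genes. The study states a variance filter with a cut-off of 0.5 and does not define it further. Here it was taken as removal of the 50% of genes with the smallest interquartile range, leaving 9969 (sample variance was tried as an alternative), and the groups were compared with lmFit and eBayes (limma 3.58.1, R 4.3.3), at a Benjamini-Hochberg adjusted threshold of 0.05. Genes removed by the filter are given from the fit to all genes, with *P* adjusted over all of them. The script was tested on simulated data. Pairs were compared by exact permutation over arrays. Intervals are 95% intervals of the moderated fit, and the number of arrays limits the precision.

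The 10 genes and all lists were chosen with earlier results of these data known. Named were the 10 genes, up to 4 changed genes with the largest absolute change of each list (the 2 largest, as values, where none changed), and the 3 nearest patterns of each of the 10 genes that changed. *E2f4*, *E2f5*, *E2f6*, *E2f8*, *Mybl1*, *Dyrk1a*, and *Rbbp7* were named outside this rule, after their values were seen. Alternatives were other filters, row choices, normalisations, array weights, a variance trend, a replicate block and leaving out each array. The promoter letters were searched in RefSeq sequences, independent of the array's build.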

Additional observations from a re-analysis of the deposited data

How the results depend on the processing

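Over the 16 alternatives, *Mybl2* passed in 13, *Foxm1* and *Lin54* in 11 and *Lin9* and *Lin52* in 5, and none of these 5 genes changed direction. The number of the 10 genes that passed (3) was 5 after renewed quantile normalisation, with weighted arrays or with a variance trend, 0 when rows with no symbol or several stayed in, and 0 to 4 with an array left out. Keeping those rows gave 0 in each of the 6 lists too and 0 among all genes (1824 at an unadjusted limma *P* under 0.05), against 752. Weighted arrays gave 3374 changed genes, and 3 MYB relatives, 28 G1/S genes, 25 genes of G2 and mitosis and 6 of the RBBP4 complexes. Without the variance filter the G1/S count was 8, that of G2 and mitosis 6 and that of the RBBP4 complexes 1, also 1 with the filter on dim genes. Genes of G2 and mitosis numbered 16 with the sample variance filter and 18 with a variance trend. With an array left out, the counts ranged from 2 to 6 for E2F and DP genes, 0 to 1 for MYB relatives, 0 to 6 for cyclin and CDK genes, 2 to 22 for G1/S genes, 0 to 13 for G2 and mitosis, 0 to 3 for RBBP4 complexes and 112 to 1239 for all genes. *Rb1* ranged from -0.25 to 0.027 with an array left out, changing sign, and *Rbl1* minus *Rbl2* from -0.043 to 0.16. *Lin37* was -0.021 with weighted arrays. The array weights ran from 0.379 (control replicate 1) to 2.40 (control replicate 3). The cause of these shifts was not tested, beyond fewer arrays or more rows entering the fit.

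No sign was seen that replicate numbers pair the arrays, though 3 arrays per group cannot exclude it. Same-numbered arrays correlated at -0.34, 0.096 and 0.080 in their deviations, and 2 of 6 arrays correlated best with their own number. With the replicate block, 3 of the 10 genes passed, 18 G1/S genes, 5 genes of G2 and mitosis and 680 genes in all.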
